A study of Mus musculus with 2 samples.

Results

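The genes described here are 34 genes of DNA replication and S phase, taken by name from the 15121 genes of a single-cell RNA table. The list was given by name with earlier results of these data known, and every member was present with UMIs (unique molecular identifiers, which count single RNA molecules) in both libraries. By role it holds 8 licensing genes, 5 genes of helicase activation or the fork checkpoint and 11 genes of DNA synthesis. The rest are 6 genes of nucleotide supply or uracil removal and 4 genes that handle chromatin and histone mRNA.

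The cells came from a syngeneic mouse melanoma model with mutated Nras, called NILER in the labels, whose cell line had been given mutations by ultraviolet light. One library is untreated and the other is from the model treated with trametinib, a MEK inhibitor, together with BGB-283, an inhibitor of RAF kinases. Both are labelled as day 5 and as T cells. The series concerns acquired resistance to MEK inhibition and the T cell response to the tumour. Doses, mouse strain and age, the number of mice and any pooling are not given in the sources used here. With 1 library per group there is no replicate check of any difference, and no test was made. The intervals of levels, ratios and shares below are exact 95% intervals that cover counting error only. An interval given with a median runs from the median of the members' lower bounds to that of their upper bounds. It is not a 95% interval of the median.

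A cell copies its whole DNA before each division. In G1 the MCM helicase is loaded on origins by Cdc6 and Cdt1 (licensing), and at the start of S phase Cdc45 and the GINS complex turn it on. The polymerases then work with the sliding clamp Pcna and its loader RFC, while ribonucleotide reductase, thymidylate synthase and thymidine kinase supply nucleotides. Many of these genes are targets of E2F factors, which cyclin-dependent kinases release from RB family proteins as a T cell leaves quiescence. MEK and ERK signalling below the T cell receptor is one of the inputs to that step.

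The untreated library held 9312 cells with a median of 6155 UMIs, and the treated library 8078 cells with a median of 5988 UMIs. The libraries shared 35 barcodes. Cells were gated by their own UMIs into CD8 T cells (4426 untreated and 5038 treated), CD4 T cells (934 and 502), Foxp3 cells (703 and 576) and dendritic cells (334 and 89), so cells other than T cells were present under the T cell label. In the CD8 gate the T cell markers summed to 3682 and 4010 CPM (counts per 1000000, here UMIs per 1000000 UMIs of the gate), and the defining markers Cd8a and Cd8b1 to 1416 and 1424 CPM. The naive state markers Ccr7, Klf2, Tcf7 and Lef1 summed to 1293 CPM in untreated and 253.3 CPM in treated CD8 cells, so the gate holds cells of different states in the 2 libraries. Of the other marker lists, macrophage genes were at 71.2 and 41.4 CPM (6 of 6 genes detected), neutrophil genes at 4.68 and 53.4 CPM (3 of 3) and stromal or tumour genes at 18.0 and 83.7 CPM (3 of 5 in the table). Their part in the results was not tested.

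The promoters of several members carry sequences of the E2F type, and they are shown here because these genes are often read as one E2F-driven program. RefSeq promoter windows (GRCm38.p6, 250 bases before to 50 after each start) were found for 29 of the 34 members. Gins1, Gins2, Mcm4, Pole and Rfc2 had no entry. The search used the octamers TTTCCCGC, TTTCGCGC, TTTGCCGC and TTTGGCGC on both strands, and matches may overlap. At least 1 match lay in the window of 13 of the 29 members (44.8%) and of 704 of 27025 genes in the table (2.605%). The upstream matches in Mcm5, Mcm6, Mcm7 and Cdc6, 3 helicase subunits and a loader, are in capitals below, and a further match in the Mcm7 window, 17 bases after the start, is not shown. The bases upstream of Pcna and Slbp, the members that were higher in treated cells, follow, and no match was found in their windows. There was also none for Rpa2, nor for 13 members that were lower in treated CD8 cells (Mcm2, Mcm10, Cdc45, Prim1, Rfc4, Fen1, Tyms, Rrm1, Rrm2, Tk1, Dut, Ung and Chaf1b). The 13 members with a match were all lower there too. With only Pcna, Slbp and Rpa2 higher, it cannot be told whether matches separate lower from higher members.
Mcm5: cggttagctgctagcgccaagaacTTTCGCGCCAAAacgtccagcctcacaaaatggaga
Mcm6: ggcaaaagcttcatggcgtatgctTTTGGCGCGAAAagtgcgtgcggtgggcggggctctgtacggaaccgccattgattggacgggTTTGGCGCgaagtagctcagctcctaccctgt
Mcm7: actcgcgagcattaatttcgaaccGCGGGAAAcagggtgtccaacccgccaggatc
Cdc6: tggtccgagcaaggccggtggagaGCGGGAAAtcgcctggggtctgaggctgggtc
Pcna: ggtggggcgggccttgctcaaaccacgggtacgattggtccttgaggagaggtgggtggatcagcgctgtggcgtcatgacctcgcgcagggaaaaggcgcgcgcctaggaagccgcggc
Slbp: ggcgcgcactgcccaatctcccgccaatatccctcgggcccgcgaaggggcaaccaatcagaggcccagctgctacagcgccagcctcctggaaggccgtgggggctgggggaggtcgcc
They lie at chr8:75109332-75109391 (plus strand) for Mcm5, chr1:128359721-128359839 (minus) for Mcm6, chr5:138172017-138172072 (minus) for Mcm7, chr11:98907989-98908044 (plus) for Cdc6, chr2:132253181-132253300 (minus) for Pcna and chr5:33652575-33652694 (minus) for Slbp, all upstream of the start. Matches were also found for Cdt1, Clspn, Dnmt1, Lig1, Mcm3, Pola1, Pold1, Rfc3 and Uhrf1. A match describes letters in a window and is not evidence of a bound site, and its absence says nothing about a factor.

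In CD8 T cells most replication genes were lower in the treated library, while the clamp Pcna and the histone mRNA factor Slbp were higher. Of the 30 members with at least 50 UMIs over both libraries and a mean of 10 CPM, 22 were at least 1.5-fold lower, 2 were at least 1.5-fold higher and 6 lay between. Over all 7148 genes past that minimum, 14.7% were at least 1.5-fold lower and 30.2% at least 1.5-fold higher. The median log2 ratio of treated to untreated was -0.88 over the 30 members (interval -1.01 to -0.75) and -0.92 over all 34, against 0.16 over all genes. Of the 34 members, 31 had an interval wholly below a ratio of 1 and 3 wholly above it. The matching share of all genes was not taken, and at this depth small gaps are enough. Rfc3, only 1.12-fold lower (1.03 to 1.21), was among the 31. When the libraries were scaled by the median ratio of all genes instead, 24 members were lower and 1 higher, and the shares of all genes became 21.5% and 23.5%. When CPM was taken in each cell and then averaged, deep and shallow cells had the same weight. The median was then -0.47 and 13 members were at least 1.5-fold lower, and no share of all genes was taken under that weighting. In all cells of a gate, fewer cycling cells and less RNA per cycling cell cannot be told apart, and the Mki67 split further on bears on this.

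The licensing genes were lower together in CD8 cells. Mcm2 was at 46.8 CPM untreated and 25.5 CPM treated, and Mcm3 at 74.4 and 38.1 CPM. Mcm4 was at 45.8 and 25.5 CPM, and Mcm5 at 63.2 and 29.0 CPM. Mcm6 was at 102.1 and 61.7 CPM. Mcm7 was at 62.6 and 27.3 CPM, the largest fold of the 6, 2.30-fold lower (2.13 to 2.47). The summed UMIs of the 6 subunits came to 395.1 CPM untreated and 207.1 CPM treated. Cdt1, which loads the helicase and is destroyed in S phase, was at 34.8 and 25.5 CPM, or 1.36-fold lower (1.25 to 1.48) and within the 1.5-fold bounds. Cdc6, the other loader, was at 10.1 and 6.01 CPM, or 1.68-fold lower (1.43 to 1.99), with too low a mean for the minimum.

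Cdc45, Gins1, Gins2 and Mcm10, which act in turning the helicase on, were also lower in the treated library, by 2.56-fold to 4.29-fold. Cdc45, which joins the helicase when it fires, was at 16.1 CPM untreated and 4.72 CPM treated, 3.42-fold lower (2.89 to 4.06). The GINS subunit gene Gins2 was at 21.1 and 8.26 CPM and Gins1 at 5.41 and 1.26 CPM, or 2.56-fold and 4.29-fold lower. Mcm10, which acts when the helicase is activated, had 242 UMIs untreated and 63 treated, or 6.12 and 1.69 CPM. Gins1 and Mcm10 were below the minimum. Clspn, which carries the checkpoint signal at stalled forks, was at 25.2 and 16.6 CPM, or 1.52-fold lower (1.37 to 1.68).

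Among the genes of DNA synthesis, members of one complex went apart. Pcna, the clamp that holds polymerases on DNA and is also used in repair, was at 92.3 CPM untreated and 186.8 CPM treated, 2.02-fold higher (1.95 to 2.11). Its loader genes were all lower by different amounts. Rfc4 was at 36.1 and 12.1 CPM, or 2.99-fold lower (2.69 to 3.33), Rfc2 at 82.8 and 47.2 CPM and Rfc3 at 32.0 and 28.7 CPM, or 1.12-fold lower (1.03 to 1.21). Pold1, the catalytic subunit of polymerase delta, which works with the clamp, was at 20.3 and 6.22 CPM, or 3.25-fold lower (2.81 to 3.78). The primase gene Prim1 was at 26.9 and 12.7 CPM, while Pola1, the polymerase that extends its primers, was at 12.2 and 9.87 CPM. Pole, the leading strand polymerase, was at 9.71 and 4.61 CPM and below the minimum. Fen1 and Lig1, which process and join Okazaki fragments, were at 37.9 and 21.5 CPM and at 61.0 and 27.0 CPM. Rpa2, a subunit of the single-strand binding protein, was at 87.0 and 101.7 CPM, or 1.17-fold higher (1.12 to 1.23).

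Among members past the minimum, the lowest ratios were those of Ung and Tk1. Both were listed in the nucleotide group, although Ung does not supply nucleotides. Ung, the glycosylase that removes uracil from DNA, was at 19.5 CPM untreated and 4.64 CPM treated, 4.21-fold lower (3.56 to 4.99). Thymidine kinase, Tk1, was at 39.6 and 10.1 CPM, or 3.91-fold lower (3.49 to 4.38). Rrm2, the ribonucleotide reductase subunit made in S phase, was at 63.4 and 28.1 CPM, and its partner Rrm1 at 54.5 and 36.1 CPM. Thymidylate synthase, Tyms, was at 54.7 and 27.2 CPM. Dut, which keeps dUTP out of DNA, was at 241.4 and 172 CPM, or 1.40-fold lower (1.36 to 1.45).

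Of the chromatin genes, Chaf1b, a subunit of the histone chaperone that follows the fork, was at 20.5 and 8.45 CPM, or 2.43-fold lower (2.13 to 2.77). Uhrf1, which brings the maintenance methyltransferase to new DNA, was at 28.0 and 15.3 CPM, and that enzyme, Dnmt1, at 49.0 and 39.4 CPM. Slbp, which binds the stem-loop of replication-dependent histone mRNAs, was at 140.7 and 233.7 CPM, or 1.66-fold higher (1.61 to 1.72).

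**Figure D1:**
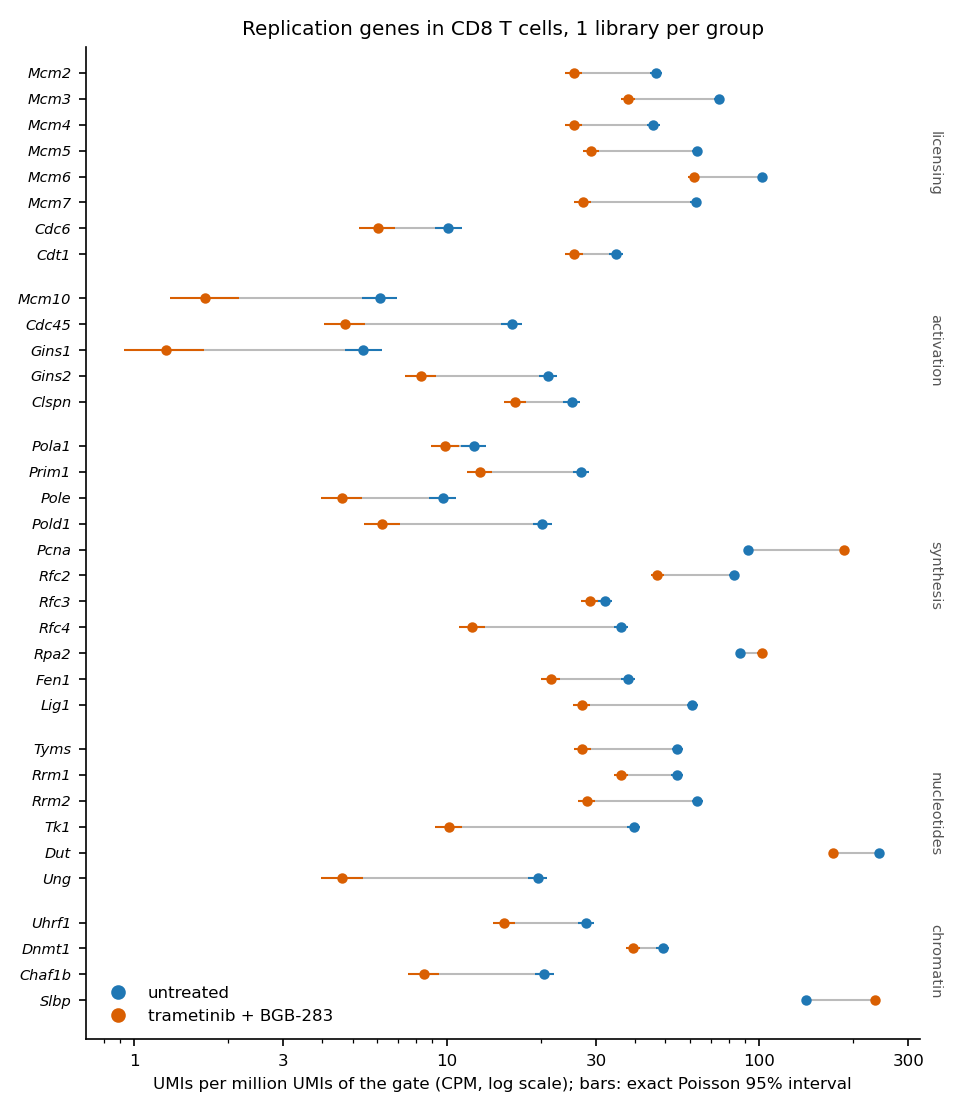
CPM (log axis) of the 34 members in all CD8 cells of the untreated and the treated library, in rows by role, with exact Poisson 95% intervals. The treated point lies to the left for all members except Pcna, Slbp and Rpa2.

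The share of CD8 cells with a UMI of Mki67, a gene of cycling cells, was 11.6% untreated (10.7 to 12.6) and 8.38% treated (7.63 to 9.18). This share depends on depth. The median CD8 cell with an Mki67 UMI had 17515 UMIs untreated and 10594 treated, against 6203 and 6343 for the other CD8 cells. With every cell thinned to 2000 UMIs, the shares were 4.01% (3.45 to 4.64) and 3.39% (2.91 to 3.94), and the intervals overlapped; 65 untreated and 87 treated cells were too shallow and were left out. In neutrophils, which do not divide, 1 of 16 and 1 of 52 cells had an Mki67 UMI, at medians of 2710 and 1746 UMIs, and after thinning 0 of 14 and 0 of 20, with upper bounds of 23.2% and 16.8%. The untreated neutrophil with Mki67 UMIs held 56254 UMIs. Mki67-bearing cells gave 27.9% of the UMIs of untreated and 14.8% of those of treated CD8 cells.

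The members were read apart in cells with and without Mki67 UMIs. In CD8 cells with Mki67 UMIs (515 untreated and 422 treated), 18 of the 33 members past the minimum were at least 1.5-fold lower and 0 at least 1.5-fold higher, against 14.5% and 24.6% of all genes. Their median log2 ratio was -0.71 (-0.85 to -0.52). In CD8 cells without Mki67 UMIs (3911 and 4616), 3 of 20 were lower (Mcm5, Mcm7 and Rfc4) and 3 higher (Pcna, Slbp and Rpa2), against 12.5% and 32.9% of all genes, with a median of -0.37 (-0.51 to -0.23). Both medians moved with the way Mki67 was read. With Mki67 read after thinning to 2000 UMIs they were -0.29 with and -0.93 without Mki67 UMIs, so the contrast between these sets of cells turned around. When each cell was given the same weight they were -0.91 and -0.13.

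Within the Mki67-bearing CD8 cells the number of Mki67 UMIs separated the members sharply, a split added after the values were seen. In cells with 1 Mki67 UMI (185 untreated and 232 treated, medians of 13133 and 7868 UMIs), 28 of 32 members past the minimum were at least 1.5-fold lower, with a median log2 ratio of -1.61 (-2.13 to -1.11) against 17.7% of all genes, and 0 were at least 1.5-fold higher, against 27.3%. Rrm2 was at 77.6 and 14.8 CPM there, and Mcm2 at 84.0 and 16.98 CPM. In cells with 2 or more Mki67 UMIs (330 and 190, medians of 21470 and 15226 UMIs), 9 of 34 were at least 1.5-fold lower and 2 at least 1.5-fold higher, against 13.2% and 23.9% of all genes, with a median of -0.35 (-0.52 to -0.18). Rrm2 was at 256 and 223.6 CPM in these cells, and Mcm5 at 156.3 and 161.9 CPM. Depth differed between the libraries in both sets, and its part was not tested.

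The 9 members that were lower even in CD8 cells with 2 or more Mki67 UMIs came from all roles except licensing. Ung was at 28.6 CPM untreated and 7.59 CPM treated, a ratio of 0.27 (0.17 to 0.40). Rfc4 was at 95.2 and 45.6 CPM, a ratio of 0.48 (0.40 to 0.57), and Pold1 at 47.2 and 23.1 CPM, a ratio of 0.49 (0.38 to 0.63). Tk1 was at 137.5 and 77.5 CPM. The others were Gins1, Chaf1b, Cdc45, Mcm10 and Rfc2, with ratios from 0.54 to 0.66. The 2 higher members were the licensing factor Cdc6, at 32.9 and 55.9 CPM with a ratio of 1.70 (1.40 to 2.05), and Pcna, at 196.6 and 320.8 CPM with a ratio of 1.63 (1.51 to 1.77). Slbp stood just inside the bound at a ratio of 1.499 (1.39 to 1.61). Mcm5, Cdt1, Pola1, Pole, Rfc3, Rpa2, Rrm1, Dnmt1 and Uhrf1 had intervals that covered a ratio of 1, which does not show that they were equal.

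**Figure D2:**
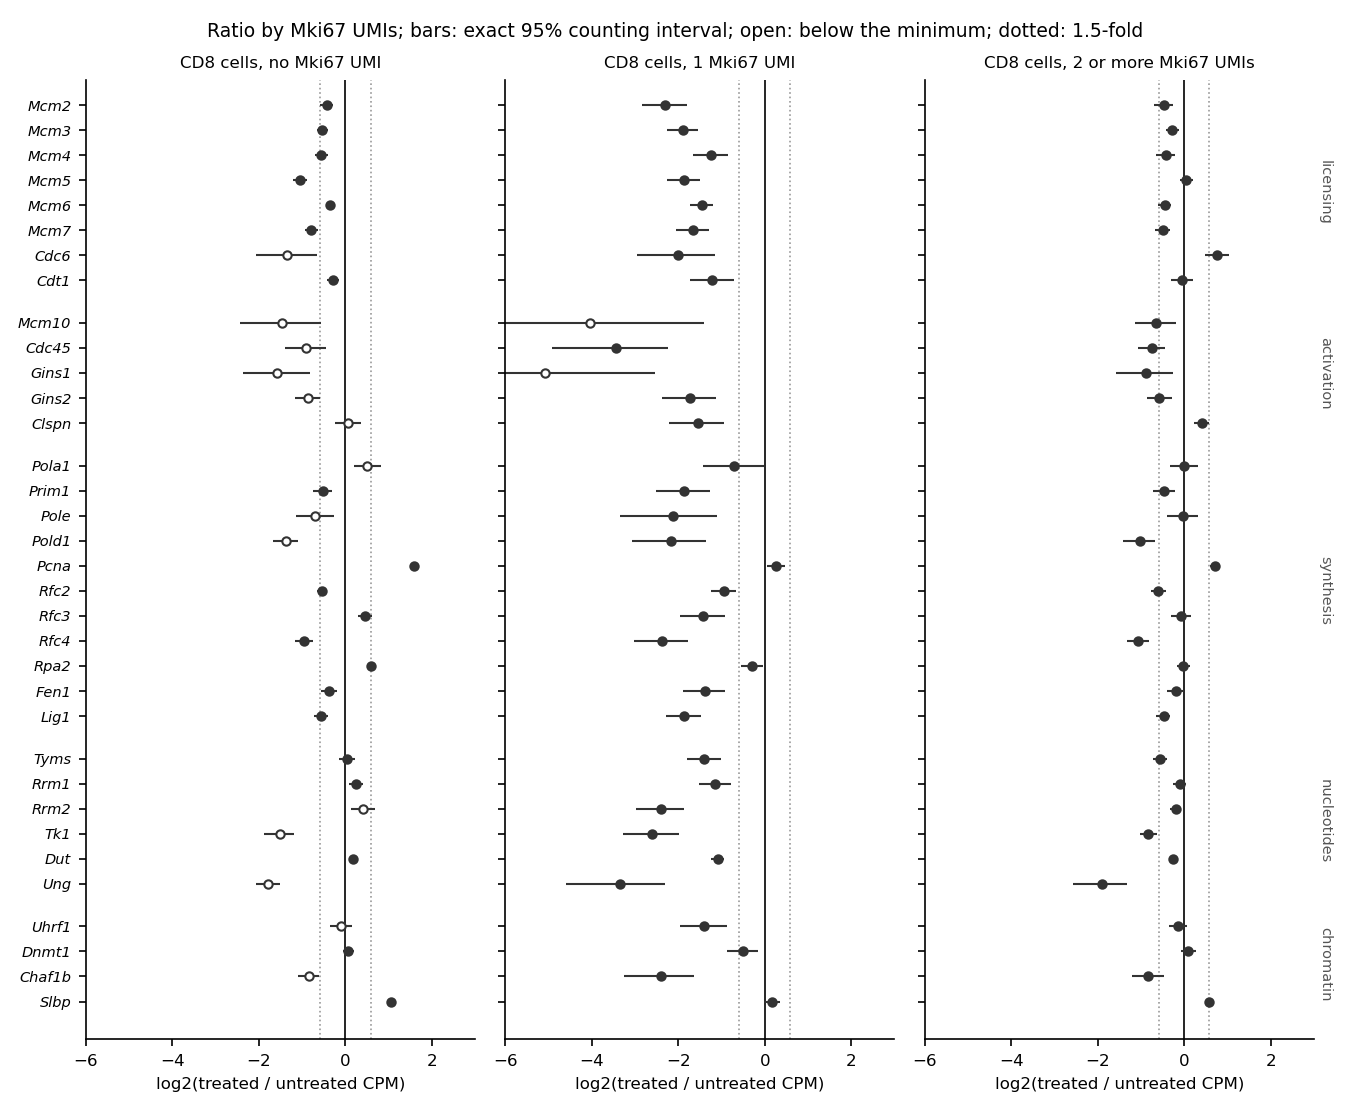
Log2 ratio of treated to untreated CPM for each member in CD8 cells with 0, 1 and 2 or more Mki67 UMIs; bars are exact 95% counting intervals, open points are members below the minimum, dotted lines mark 1.5-fold, and the bars of Mcm10 and Gins1 run past the axis at 1 UMI. Points lie far to the left at 1 Mki67 UMI and nearer 0 at 2 or more, while Pcna lies to the right in all 3 panels.

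Levels per cell were compared by the number of Mki67 UMIs. In CD8 cells with 1 Mki67 UMI the median cell held 3.78 UMIs of Mcm2 to Mcm7 per 10000 UMIs untreated and 1.28 treated, and 13.0% and 39.7% of these cells held none. Without Mki67 UMIs the medians were 1.17 and 1.19 per 10000, close to the treated cells with 1 Mki67 UMI. The treated median cell was thus not lower, but the pooled level was. Pooled over the cells without Mki67 UMIs, the 8 licensing genes summed to 260.4 CPM untreated and 180.1 CPM treated. In cells with 2 or more Mki67 UMIs the medians were 8.10 and 6.41 per 10000. For the 31 members other than Pcna, Slbp and Rpa2, the medians were 12.1 and 5.50 per 10000 at 1 Mki67 UMI. They were 35.0 and 25.8 at 2 or more, and 3.96 and 4.62 without Mki67 UMIs, where the treated median was the higher one. Over the pooled UMIs of the cells without Mki67 UMIs, the median log2 ratio of the 20 members past the minimum was -0.37. The 17 genes of a mitosis list, none of them members, followed with 4.21 and 0.883 per 10000 at 1 Mki67 UMI, and 29.8 and 28.9 at 2 or more. Cells are not replicates, and these are descriptions of 2 libraries.

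**Figure D3:**
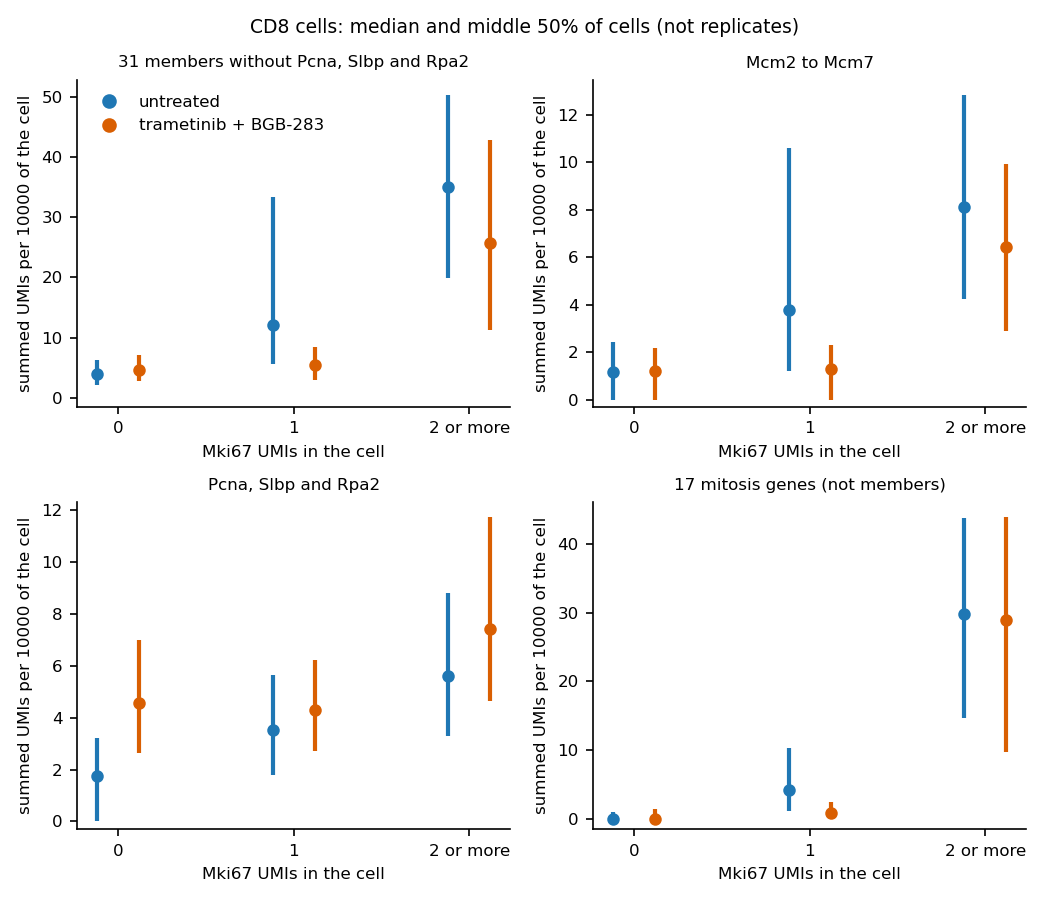
Summed UMIs per 10000 UMIs of the cell in CD8 cells with 0, 1 and 2 or more Mki67 UMIs; points are the median cell, bars the middle 50% of cells. At 1 Mki67 UMI the treated cells lie near those with 0, while Pcna, Slbp and Rpa2 together are higher in the treated library in each set.

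Pcna and Slbp were higher in the treated library even where the cells held no Mki67 UMI. In such CD8 cells Pcna was at 58.5 CPM untreated and 175 CPM treated, 2.99-fold higher (2.83 to 3.16), and Slbp at 107.4 and 222.6 CPM, or 2.07-fold higher (1.99 to 2.16). A Pcna UMI was found in 27.6% of the untreated and 64.8% of the treated cells, at medians of 6203 and 6343 UMIs. After thinning to 2000 UMIs the shares were 9.10% (8.21 to 10.1) and 29.5% (28.2 to 30.8). For Slbp the thinned shares were 18.1% and 36.2%. In neutrophils a Pcna UMI was found in 3 of 16 untreated and 13 of 52 treated cells, and Pcna was at 66.0 CPM (40.3 to 102) and 170 CPM (102 to 266) there. The level in treated CD8 cells thus lay inside the interval for treated neutrophils, as did that of Slbp, at 143.2 CPM (81.8 to 232.5) in neutrophils. These treated neutrophil intervals rest on 19 Pcna and 16 Slbp UMIs and are wide, so they cannot separate the 2 cell types by level. In the untreated library Pcna in CD8 cells lay inside the neutrophil interval too, while Slbp in CD8 cells lay above it, at 66.0 CPM (40.3 to 102) in neutrophils. Untreated neutrophils held Mcm2 to Mcm7 at 122 CPM (85.9 to 168) and the other 31 members at 541 CPM, and 18.6% of their UMIs came from the 1 cell with Mki67 UMIs. The gating genes S100a8 and S100a9 were at 10780 CPM in untreated and 73300 CPM in treated neutrophils. The untreated set was thus not shown to be free of other or dividing cells. The treated neutrophils held Cd8a and Cd8b1 at 17.9 CPM (2.17 to 64.7) on 2 UMIs, against 1424 CPM in the treated CD8 cells. They held Mcm2 to Mcm7 at 35.8 CPM (9.75 to 91.7) on 4 UMIs, against 207.1 CPM. The part of free RNA in the Pcna and Slbp values was not tested. The summed level of Pcna, Slbp and Rpa2, a set chosen after their values were seen, was 1.73 per 10000 in the median untreated CD8 cell without Mki67 UMIs and 4.57 in the treated one, and 31.3% and 8.19% of these cells held none.

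The 34 members differed widely in how closely they tracked Mki67. In untreated CD8 cells the CPM with Mki67 UMIs over that without ranged from 1.83 for Cdt1 to 31.9 for Rrm2, with a median of 4.66. In treated CD8 cells the lowest was Rpa2 at 1.34 and the highest Cdc6 at 43.7, with a median of 3.76. Pcna went from 3.07 (2.88 to 3.28) in the untreated to 1.46 (1.37 to 1.54) in the treated library, and Slbp from 2.11 (2.00 to 2.23) to 1.34 (1.27 to 1.41). Rrm2 went from 31.9 (27.5 to 37.2) to 15.9 (13.9 to 18.4) and Tyms from 9.12 (8.23 to 10.1) to 4.92 (4.34 to 5.58). Cdc6 went the other way, from 14.9 (11.3 to 20.1) to 43.7 (29.0 to 68.6), and Mcm5 from 4.70 (4.33 to 5.11) to 7.28 (6.45 to 8.23). Cdc6 rested on 59 and 26 UMIs in cells without Mki67 UMIs. Tk1, Mcm10, Cdc45 and Clspn had values of 10 or more in both libraries, with intervals that overlapped between them.

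**Figure D4:**
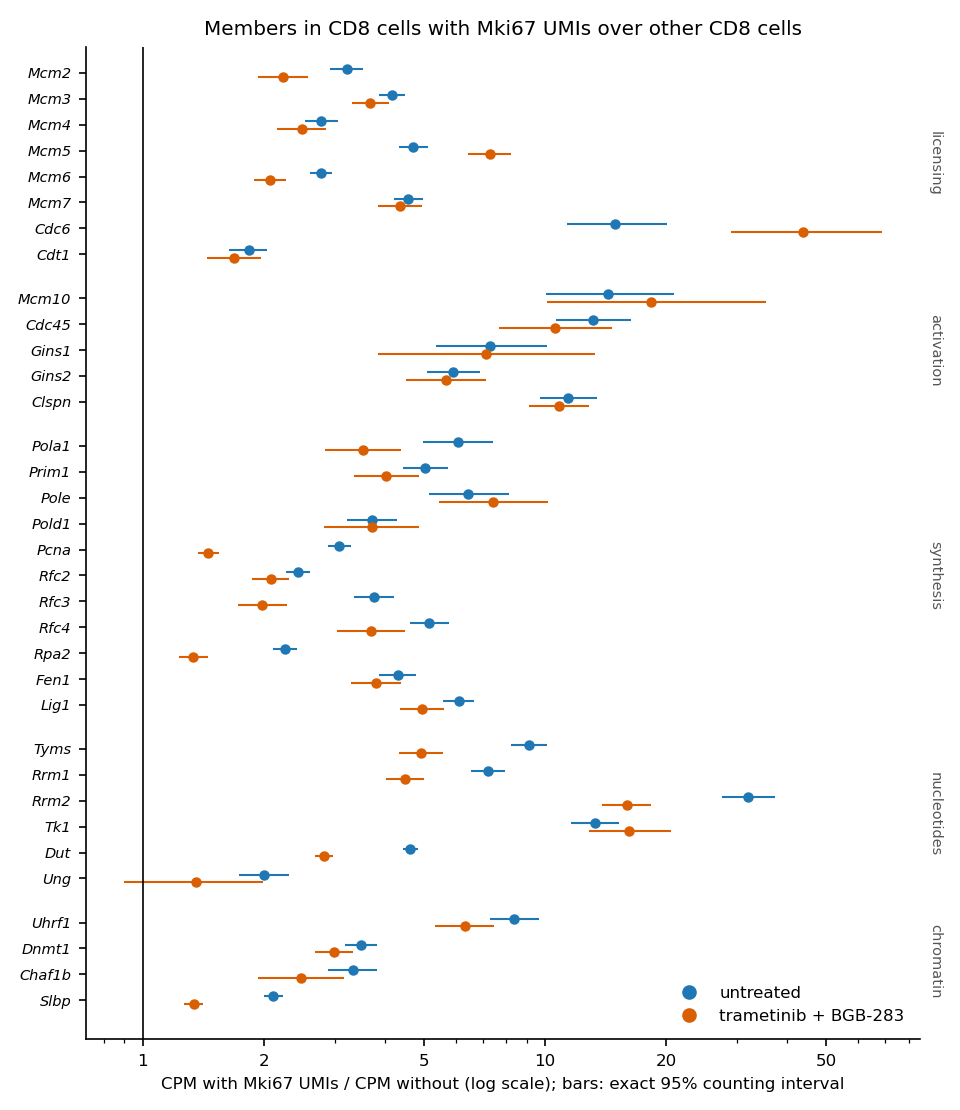
CPM in CD8 cells with Mki67 UMIs divided by CPM in other CD8 cells (log axis), for each member and library, with exact 95% counting intervals. Rrm2 is highest in the untreated and Cdc6 in the treated library, and Pcna, Slbp and Rpa2 lie nearest 1 in the treated library together with Ung.

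Part of the gap over all CD8 cells went with the share of UMIs that came from Mki67-bearing cells. When the treated library was weighted to the untreated share of 27.9%, the median over the 34 members went from -0.92 to -0.61. The number at least 1.5-fold lower went from 26 to 18, and no share of all genes was taken at that weighting. Cdc6, Clspn, Pola1 and Rfc3 then had ratios of 1.05, 1.00, 1.00 and 0.994. Ung, which stood at 30.6 and 5.97 CPM with and 15.3 and 4.41 CPM without Mki67 UMIs, stayed at a ratio of 0.248. Tk1 reached a ratio of 0.412, Rfc4 0.418 and Pold1 0.385. Pcna was at 2.14 and Slbp at 1.73. This weighting takes the depth-dependent Mki67 split as given.

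Other genes of the same pathway are set here beside the shares of all CD8 genes, 14.7% lower and 30.2% higher. Of 44 further genes of origins, forks and replication factors, 32 passed the minimum, with 14 at least 1.5-fold lower, 3 at least 1.5-fold higher and a median of -0.51. The lowest were Rfc5, another clamp loader subunit, at 38.9 and 10.97 CPM, and Tipin, a fork protection factor, at 64.6 and 18.5 CPM. The highest by the interval bound nearest 1 were Topbp1, a checkpoint and initiation scaffold, at 39.5 and 69.7 CPM, and Wdhd1, which links the helicase to polymerase alpha, at 10.1 and 18.1 CPM. Of 26 genes that control the G1 to S step, 19 passed, with 6 lower and 6 higher, the latter a share near that of all genes. Ccne2, an E-type cyclin, was at 5.16 and 21.4 CPM, or 4.14-fold higher (3.55 to 4.85), and Rbl2, an RB family gene of quiescent cells, at 42.8 and 110.1 CPM. Ccna2, the cyclin of S phase and mitosis, was at 45.2 and 19.3 CPM, and Cdkn2d, an inhibitor of the D cyclin kinases, at 86.4 and 38.0 CPM. Cdkn1a, a kinase inhibitor whose protein also binds the clamp, was at 49.3 and 97.5 CPM, or 1.98-fold higher (1.87 to 2.09). In CD8 cells without Mki67 UMIs Ccne2 was at 1.58 and 18.9 CPM and Cdkn1a at 37.4 and 98.3 CPM. These are sums over that set of cells, and whether single cells held them together with Pcna was not tested. Of the 17 mitosis genes 14 of 15 were at least 1.5-fold lower, with a median of -1.13. Of 14 p53 target genes 11 passed, with 4 higher and 1 lower, so their share of higher genes was also near that of all genes. Mki67 itself was at 61.9 and 46.4 CPM.

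The CD4 gate had fewer cells and a median gap closer to 0. Of 22 members past the minimum, 7 were at least 1.5-fold lower and 4 at least 1.5-fold higher, against 16.6% and 23.9% of all genes, and the median log2 ratio was -0.26, with an interval of -0.76 to 0.11 that covers 0. Pcna was at 49.1 CPM untreated and 168 CPM treated, 3.42-fold higher (2.91 to 4.03), and Slbp at 112 and 213.1 CPM, or 1.90-fold higher (1.68 to 2.15). Cdt1 was at 23.5 and 35.3 CPM, a ratio of 1.5 (1.12 to 2.00), where it was lower in CD8 cells. Clspn was at 8.05 and 13.1 CPM on 38 and 33 UMIs, with an interval of 0.988 to 2.66. Lig1 was at 41.3 and 19.4 CPM, or 2.13-fold lower (1.55 to 2.97), and Mcm4 at 30.3 and 17.8 CPM. Rfc2, Rfc4, Mcm5, Chaf1b and Fen1 were the other members at least 1.5-fold lower, and the intervals of Rfc4 and Fen1 covered 1. Only 36 and 24 CD4 cells held an Mki67 UMI, or 3.85% and 4.78%. In the CD4 cells without Mki67 UMIs Pcna was at 41.4 and 170.1 CPM, or 4.11-fold higher (3.43 to 4.94), Slbp, Cdt1 and Rrm1 were also past 1.5-fold, and Lig1 alone was at least 1.5-fold lower (4 and 1 of 17, against 24.5% and 14.5% of all genes). Cdkn1a was at 105.9 and 254 CPM in the CD4 gate. Naive state markers summed to 1727 and 819.7 CPM and stromal or tumour markers to 70.3 and 163.2 CPM there, and their part was not tested.

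In Foxp3 cells most members lay within 1.5-fold, and those past it were mainly lower in the treated library. Of 32 members past the minimum, 7 were at least 1.5-fold lower (Mcm2, Gins2, Pold1, Rfc4, Rrm2, Tk1 and Ung) and 1 at least 1.5-fold higher (Pcna), against 9.35% and 17.4% of all genes, with 24 between, and the median was -0.43 (-0.64 to -0.14). All 7 were at least 1.5-fold lower in CD8 cells as well. Tk1 was at 54.6 CPM untreated and 20.1 CPM treated, 2.72-fold lower (2.19 to 3.42), and Ung at 17.3 and 4.91 CPM, or 3.52-fold lower (2.28 to 5.64). Mcm5 was at 77.8 and 61.5 CPM and Mcm6 at 120.1 and 88.5 CPM. Pcna was at 94.3 and 160 CPM, or 1.70-fold higher (1.53 to 1.88), and Slbp at 158.4 and 196.8 CPM, or 1.24-fold higher (1.14 to 1.35). Rpa2 was at 71.3 and 48.0 CPM, lower where it was higher in CD8 cells. The share with an Mki67 UMI was 21.9% (18.9 to 25.2) and 19.97% (16.8 to 23.5), and these cells gave 43.2% and 40.0% of the UMIs, so weighting the treated library to the untreated share moved the median over the 34 members only from -0.43 to -0.36. In Foxp3 cells with Mki67 UMIs 7 of 33 members were at least 1.5-fold lower (9.85% of all genes), and in those without 2 of 19, Rpa2 and Tk1 (11.6%), with Pcna alone higher (18.7%). Pcna was at 55.2 and 128.1 CPM in Foxp3 cells without Mki67 UMIs, 2.32-fold higher (1.96 to 2.74). Cdkn1a was at 122.7 and 136.8 CPM. Cd8a and Cd8b1 summed to 313.9 and 165.1 CPM in this gate, which takes any T cell with a Foxp3 UMI, and stromal or tumour markers to 21.6 and 122.7 CPM. Their part was not tested.

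The dendritic gate held only 89 treated cells and could show little. Of 25 members past the minimum, 2 were at least 1.5-fold lower (Rrm2 and Tk1) and 3 at least 1.5-fold higher (Pcna, Uhrf1 and Slbp), against 12.6% and 21.8% of all genes, and the median was -0.08 (-0.76 to 0.70). Pcna was at 44.7 and 99.1 CPM, or 2.22-fold higher (1.74 to 2.82), and Slbp at 76.2 and 115.3 CPM. Rrm2 was at 33.2 and 17.2 CPM, on 160 and 18 UMIs. Uhrf1 was at 14.3 and 24.8 CPM, with an interval of the ratio from 1.06 to 2.75. An Mki67 UMI was found in 48 of the untreated and 4 of the treated cells, too few to read the members in them. Macrophage markers summed to 214.3 and 734.9 CPM in this gate, with C1qa at 0 in the treated cells, and neutrophil markers to 1.87 and 156.3 CPM. Their part was not tested.

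**Figure D5:**
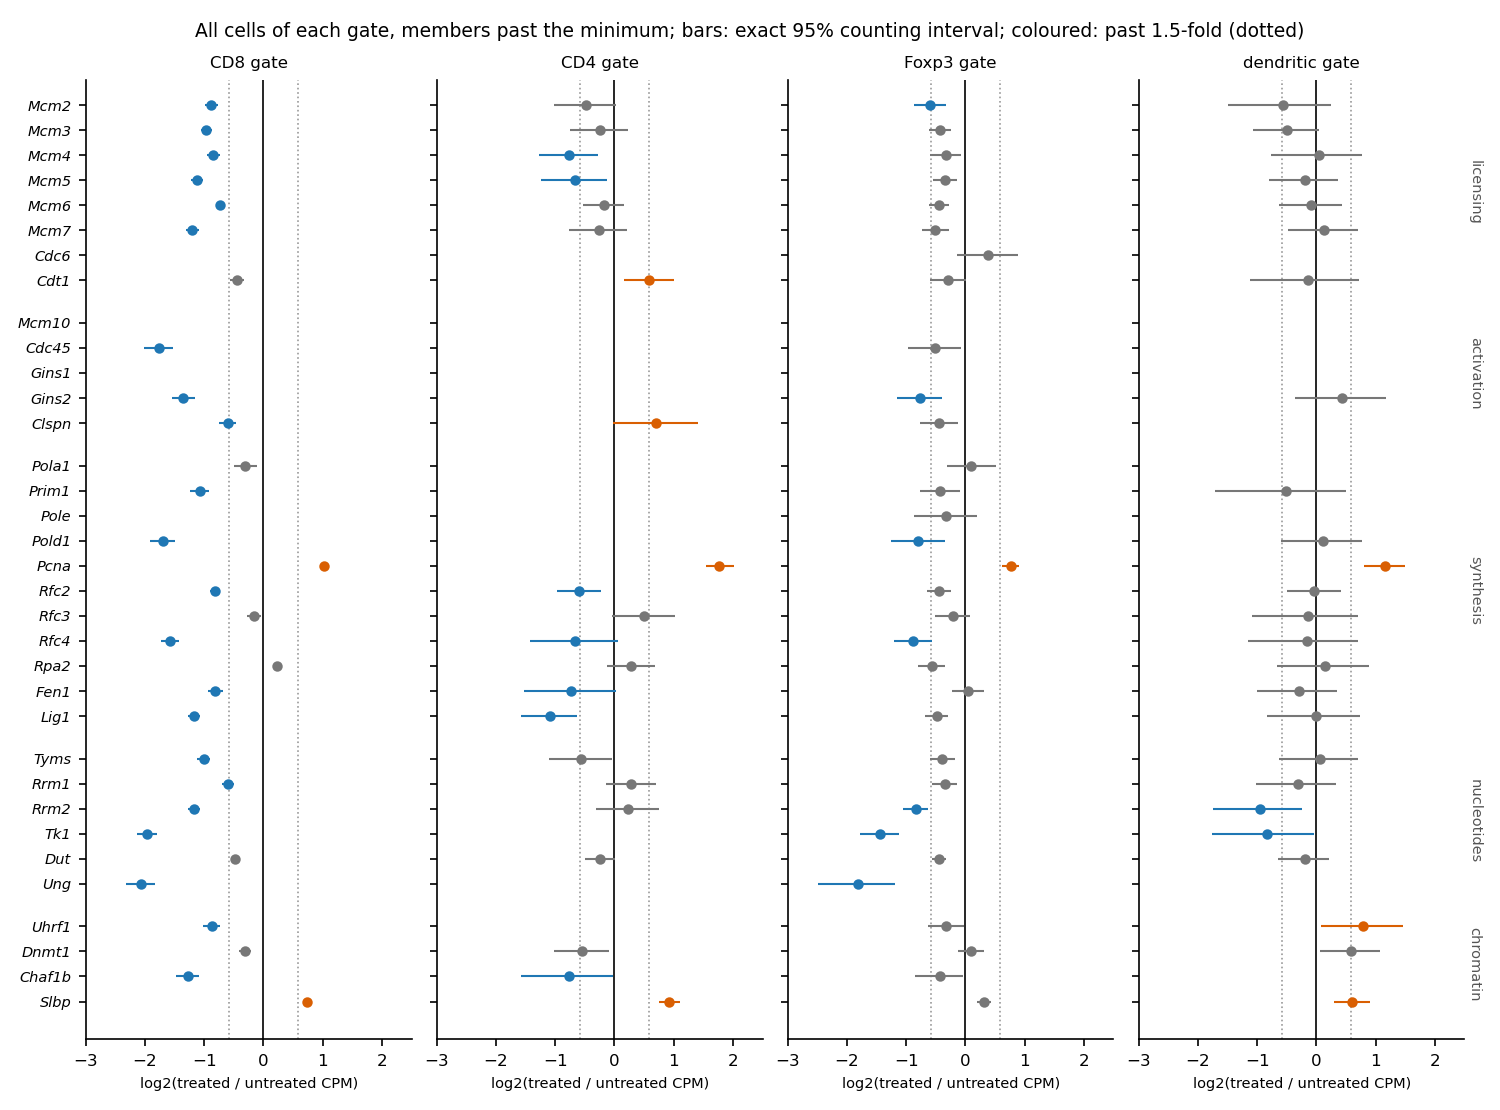
Log2 ratio of treated to untreated CPM for members past the minimum in all cells of the CD8, CD4, Foxp3 and dendritic gates, with exact 95% counting intervals; blue and orange points are at least 1.5-fold lower and higher, and dotted lines mark that bound. Pcna lies to the right of the bound in all 4 gates, and blue points are most frequent in the CD8 gate.

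Among members past the minimum in all 4 gates, Pcna alone was past 1.5-fold in the same direction in each. It ran from 1.70-fold higher in Foxp3 cells to 3.42-fold in CD4 cells. Tk1 was at least 1.5-fold lower in the CD8, Foxp3 and dendritic gates. In the CD4 gate it was at 9.11 and 3.96 CPM, or 2.30-fold lower (1.14 to 5.13), but below the minimum. The point values of Pcna lay between 99.1 and 186.8 CPM in the treated library, and between 44.7 and 94.3 CPM in the untreated library. The counting interval of Pcna in untreated Foxp3 cells, 87.3 to 101.6 CPM, reached past its lowest treated value, that of dendritic cells. Slbp was higher in all 4 gates and past 1.5-fold in 3 of them. Whether the gates differed from each other was not tested. The gates share their 2 libraries, so agreement between them is not an independent repeat.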

How the data were processed

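Both libraries were made from polyadenylated RNA with the Chromium Single Cell 3' v3 kit, per the labels. Per the submitters' processing notes, Cell Ranger and Seurat were used, with no version, and the build named is GRCh38, although the gene symbols are those of the mouse. The authors deposited natural log values, which were found to be ln(1 + UMIs per 10000 UMIs of the cell). The values of every cell summed to 10000 after back-transformation, and all 38204229 values above 0 (100.0%) came out as whole UMIs within 0.01. The table held 17390 cells, or 95349992 UMIs untreated and 58318786 treated, and 0 columns were left unmapped.

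Cells with over 10% mitochondrial UMIs were removed (216 untreated and 358 treated). T cell gates needed at least 1 UMI of Cd3e, Cd3d, Cd3g or Trac, and under 0.2% of UMIs from C1qa, C1qb, C1qc, Lyz2 and class II genes. CD8 cells had Cd8a or Cd8b1 and no Cd4 or Foxp3 UMIs, CD4 cells had Cd4 and none of the others, and Foxp3 cells had Foxp3. Dendritic cells had no T cell UMIs, at least 10 UMIs of class II genes and Cd74 and at least 1 of Flt3, Zbtb46, Xcr1, Clec9a, Cd209a, Fscn1 or Ccl22, with under 3 C1q and under 2 B cell UMIs. Neutrophils had at least 10 UMIs of S100a8 and S100a9 and no T cell UMIs. They also had under 3 C1q UMIs and under 10 UMIs of class II genes and Cd74. No doublet caller was used, and removing the top 5% of Scrublet scores was an alternative. UMIs were summed per gate and library. Levels have exact Poisson intervals, ratios exact conditional binomial intervals and shares Clopper-Pearson intervals, all at 95%. The interval of a median runs from the median of the members' lower bounds to that of their upper bounds. Calls used 1.5-fold and the minimum of 50 UMIs over both libraries and a mean of 10 CPM.

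All members are named, and of the other fork and G1 to S lists those with the 2 highest and 2 lowest bounds in CD8 cells, with Mki67, Cdkn1a and Ccne2. The members and lists were chosen with earlier results of these data known. The ratio step was run on CD8 counts simulated as Poisson draws for 7148 genes, with 200 changed. The interval excluded 1 in the right direction for 100.0% of 50 genes at each of 0.5-fold, 0.667-fold, 1.5-fold and 2-fold. It covered the true ratio for 94.9% of 6923 unchanged genes. The interval assumes such draws, so this checks the calculation only and says nothing of spread between cells or mice. The tools were scipy 1.17.1 for intervals, scanpy 1.11.5 for Scrublet, pandas 2.3.3 with numpy 2.4.6 for tables and matplotlib 3.10.9 for plots, run in Python 3.11.15. Promoters were matched by symbol, and the last bases of 31 of 36 member windows lay in a GENCODE M21 transcript of the gene.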

Additional observations from a re-analysis of the deposited data

Results flagged for a closer look

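Clspn, the fork checkpoint mediator, had a log2 ratio of treated to untreated of -0.60 in the CD8 gate and 0.70 in the CD4 gate, opposite signs under the same contrast. The difference was not tested, and the CD4 value has an interval of -0.02 to 1.41 on 38 and 33 UMIs. Uhrf1, the partner of the maintenance methyltransferase, had a log2 ratio of -0.87 in the CD8 gate and 0.79 in the dendritic gate, where the interval was 0.08 to 1.46 and the treated library held 89 cells. This difference was not tested either.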

How the results depend on the processing

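No paired analysis was possible because each group has 1 library. The CD8 medians kept their sign in every setting run. The median log2 ratio of members in all CD8 cells (-0.88) was -1.03 with totals taken without ribosomal and mitochondrial genes, -1.03 with median ratio scaling and -0.47 when each cell had the same weight, where 13 members in place of 22 were at least 1.5-fold lower. With Mki67 UMIs (-0.71) it was -0.35 at 2 or more Mki67 UMIs, -0.29 with Mki67 read after thinning to 2000 UMIs and -0.91 with each cell at the same weight. Without Mki67 UMIs (-0.37) the same 3 settings gave -0.55, -0.93 and -0.13, the total without ribosomal and mitochondrial genes -0.62, median ratio scaling -0.60 and a minimum of 10 UMIs -0.53. The CD8 shares with Mki67 UMIs, 11.64% untreated and 8.38% treated, were 4.01% and 3.39% after thinning and 7.46% and 3.77% at 2 or more UMIs. The cause of these shifts was not tested. The CD4, Foxp3 and dendritic medians stayed within the intervals given with them, or kept their sign on the natural log scale, in 11, 12 and 10 settings. Over all settings 27 members were below 0 in all CD8 cells, 3 above 0 (Pcna, Slbp and Rpa2), and Dnmt1, Dut, Pola1 and Rfc3 crossed 0. In cells with Mki67 UMIs Cdc6 and Clspn crossed 0. In cells without, 22 were below 0, 7 above, and Clspn, Dnmt1, Dut, Tyms and Uhrf1 crossed 0. Pcna ranged from 0.86 to 1.49 in all CD8 cells and from 1.35 to 1.80 in those without Mki67 UMIs. Scrublet's top 5% took 6.02% of untreated and 6.398% of treated CD8 cells with Mki67 UMIs, and 3.27% and 3.45% of the others. Removing CD8 cells with Gzmd, Gzme, Gzmf or Gzmg UMIs, an alternative added after seeing the data, left 19 members at least 1.5-fold lower. Removing shared barcodes left 22. No share of all genes was taken for these 2 removals or for equal cell weight. The numbers of treated dendritic and CD4 cells with Mki67 UMIs, 4 and 24, limit what can be seen there.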
